A study of Danio rerio with 8 samples.

Results

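The methionine cycle of the larval zebrafish liver was followed through the transcripts of 10 genes, chosen by symbol from the 28599 named rows of the deposited count table, and set out for livers with active YAP and wild-type (WT) livers. The members are mat1a, mat2aa and mat2ab, gnmt and pemt, ahcy, bhmt and mtr, and cbsa and cbsb. All 10 symbols were found, and 9 genes passed the filter on low counts; pemt did not. The symbols were proposed with the lf:YAP and WT values of these 8 libraries already known, so the values of the members are given as a description without a test.

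Livers were dissected from untreated larvae at 7 days and pooled by 10 for each library. There were 4 pools from the lf:YAP line, in which hepatocytes carry active YAP, the transcriptional coactivator that Hippo signalling restrains, and 4 pools from WT larvae. The labels name neither the promoter nor the YAP sequence of the transgene, nor state that each pool had its own clutch, so the errors given measure how these pools differ, and that can be technical.

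The methionine cycle supplies the methyl groups of the cell. Methionine adenosyltransferase (MAT) joins methionine to ATP and forms S-adenosylmethionine (SAM), methyltransferases pass on its methyl group, and the product is split to homocysteine, which is either methylated back to methionine or led into cysteine synthesis. The mammalian liver is the main site of this cycle, where MAT1A is the isozyme of mature hepatocytes and MAT2A that of other and of growing cells.

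Named genes had 2668432 to 3170508 counts per library in lf:YAP and 2853543 to 3797709 in WT, and the 3 rows with most counts took 50.6% to 57.1% of them in lf:YAP and 55.2% to 56.5% in WT. The members together had 7669 to 10373 counts per library in lf:YAP and 11300 to 13968 in WT. Levels below are TMM-scaled CPM, counts corrected for a library size that the TMM factors set from the bulk of genes, and means are given ± SD. They are not corrected for transcript length, so they compare libraries and not genes. Of the 12 listed hepatocyte markers, hpx was near 0 in both groups, with 1 count in lf:YAP and 5 in WT over all libraries, and the other 11 were tested. The test called fabp10a, for the fatty acid binding protein of liver, and cp, for ceruloplasmin, higher at 293% and 180% of WT, and apoa2, fgb and rbp4 lower at 46.9% to 48.1% of WT. The others, tfa, apoa1b, apobb.1, fga, ambp and serpina1, did not pass, at 51.5% to 136% of WT. Over all genes tested, 11.1% were called higher and 10.5% lower. Counts on yap1, which check the labels, came to 631, 1012, 300 and 1304 CPM in lf:YAP replicates 1 to 4, against 16.7 to 23.7 CPM in WT.

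Of all members, mat1a and mat2aa differed most between the groups, and both encode methionine adenosyltransferases. The mat1a gene, for the hepatocyte isozyme, had 214, 205, 262 and 186 CPM in lf:YAP replicates 1 to 4, against 652.5, 555, 617 and 511 CPM in WT replicates 1 to 4. The highest lf:YAP library thus lay below the lowest WT library by a wide gap. The means were 217 ± 32.2 CPM in lf:YAP and 584 ± 63.2 CPM in WT (SD, n = 4 each), or 37.1% of the WT level, with a log2 fold change of -1.43 ± 0.17 (SE).

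The mat2aa gene, for a paralog of the isozyme found outside mature hepatocytes in mammals, was also lower. It had 48.1, 52.4, 74.5 and 44.5 CPM in lf:YAP, against 146.5, 135, 127 and 81.3 CPM in WT. The groups did not overlap, but lf:YAP replicate 3 and WT replicate 4 stood close to each other. Its log2 fold change was -1.16 ± 0.22 (SE), and -1.34 without lf:YAP replicate 3.

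The third isozyme gene, mat2ab, differed less. It had 51.0, 44.7, 91.1 and 37.3 CPM in lf:YAP, against 73.3, 66.4, 94.8 and 93.4 CPM in WT. The lf:YAP libraries other than replicate 3 lay below all WT libraries, and replicate 3 lay within the WT range. The log2 fold change was -0.56 ± 0.26 (SE), between -0.89 (without replicate 3) and -0.40 (without replicate 4) with any 1 library left out. Reads shared by mat2aa and mat2ab may have been divided between them or left out, so their separate values are less certain than their sum, which was 81.8 to 165.5 CPM in lf:YAP and 175 to 222 CPM in WT. A further row, mat2al, which is no member and was chosen after its values were seen, had 2.51 to 6.38 CPM in lf:YAP and 4.94 to 5.29 CPM in WT.

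Within a library, the division of counts among the 3 MAT genes does not depend on scaling between libraries. The mat1a row took 68.4%, 67.8%, 61.3% and 69.5% of them in lf:YAP replicates 1 to 4, and 74.8%, 73.3%, 73.5% and 74.5% in WT replicates 1 to 4. The exact 95% binomial intervals, which cover counting error only, ran from 58.2% to 72.2% over the lf:YAP libraries and from 71.3% to 76.6% over the WT libraries. The mean share was 66.7 ± 3.72% in lf:YAP and 74.1 ± 0.718% in WT (SD, n = 4 each), a difference of -7.32 percentage points, and between -8.23 and -5.49 with any 1 library left out. The mat2ab row took up most of this difference, with 13.9% to 21.3% in lf:YAP and 8.40% to 13.6% in WT, while mat2aa had overlapping shares of 15.3% to 17.4% in lf:YAP and 11.9% to 17.9% in WT. All 3 genes had lower mean levels in lf:YAP, so the larger mat2ab share went with a smaller total, 268 to 427 CPM in lf:YAP and 686 to 872 CPM in WT for the 3 genes together.

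**Figure D1:**
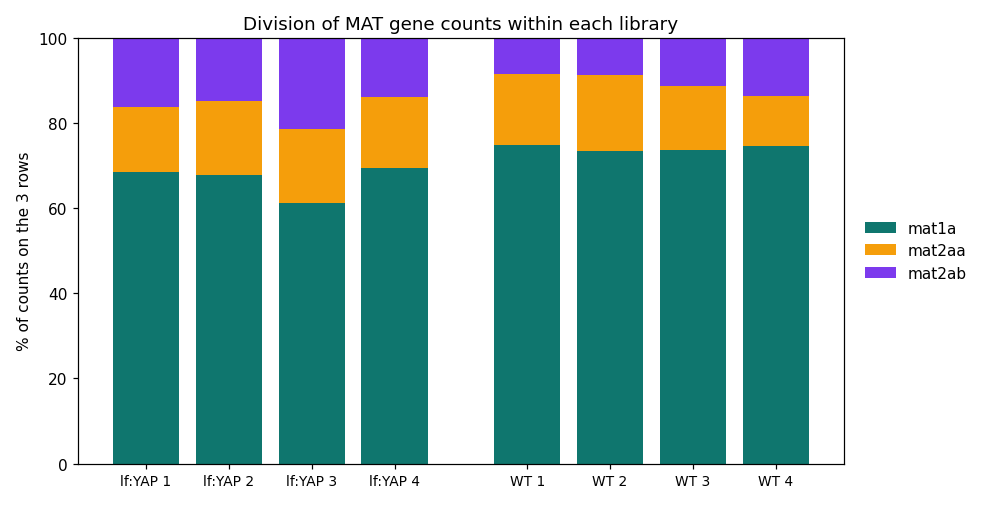
Each bar is 1 library and shows the percent of the counts on mat1a, mat2aa and mat2ab together that fell on each gene, with the lf:YAP libraries left of the WT libraries. The mat1a part is 61.3% to 69.5% in lf:YAP and 73.3% to 74.8% in WT, without overlap.

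Of the methyltransferases that use SAM, gnmt encodes glycine N-methyltransferase, which makes sarcosine and in mammals takes up surplus SAM. It had 125, 100, 187 and 79.3 CPM in lf:YAP, against 195, 151, 163 and 157 CPM in WT. Replicates 1, 2 and 4 lay below all WT libraries, and replicate 3 lay near the top of the WT range. The log2 fold change was -0.44 ± 0.23 (SE), between -0.72 (without replicate 3) and -0.28 (without replicate 4) with any 1 library left out. The pemt gene, for the enzyme that methylates phosphatidylethanolamine to phosphatidylcholine, had 0, 4, 4 and 8 counts in lf:YAP and 3, 7, 3 and 4 counts in WT. At 16 counts in lf:YAP and 17 in WT over 4 libraries each, no difference could be seen at this depth.

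The ahcy gene encodes S-adenosylhomocysteine hydrolase, which splits the product left by methyltransferases. It had 705, 481, 885 and 400 CPM in lf:YAP, against 1010, 1049, 1253 and 902 CPM in WT. The groups did not overlap, although lf:YAP replicate 3 came close to WT replicate 4. The means were 618 ± 220 CPM in lf:YAP and 1053 ± 147 CPM in WT (SD, n = 4 each), or 58.7% of WT, with a log2 fold change of -0.77 ± 0.24 (SE).

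Homocysteine is returned to methionine by either of a pair of enzymes. The bhmt gene encodes the betaine-dependent one, an enzyme of liver and kidney in mammals, and it held 50.5% to 59.5% of the members' counts in lf:YAP and 47.3% to 51.9% in WT. It had 1743, 1097, 2627 and 971 CPM in lf:YAP, against 2531, 2072, 2525 and 1813 CPM in WT. Replicate 3 was thus above every WT library while the other lf:YAP libraries were below all of them. Its log2 fold change of -0.47 ± 0.29 (SE) moved to -0.82 without that library, and to -0.29 without replicate 4. The mtr gene, for the methionine synthase that depends on folate and cobalamin, showed no such pattern. It had 15.8, 16.8, 19.2 and 22.7 CPM in lf:YAP, against 22.9, 17.9, 17.1 and 11.8 CPM in WT, and the groups overlapped. Its log2 fold change was 0.11, with a 95% interval from -0.43 to 0.64.

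Cystathionine beta-synthase draws homocysteine out of the cycle towards cysteine, and zebrafish have 2 genes for it. The cbsa gene had 92.2, 88.4, 101 and 74.9 CPM in lf:YAP, against 131, 122, 130 and 119 CPM in WT. The groups did not overlap, and the log2 fold change was -0.49 ± 0.15 (SE). The cbsb gene had 127, 85.6, 166 and 77.4 CPM in lf:YAP, against 115, 138, 184 and 147 CPM in WT. Here replicates 1 and 3 of lf:YAP lay within the WT range, and the log2 fold change was -0.36 ± 0.24 (SE), -0.60 without replicate 3, -0.21 without replicate 4 and -0.12 with total counts alone. Reads shared by the paralogs may have been split; their sum was 152 to 267 CPM in lf:YAP and 246 to 314 CPM in WT, and cbsa took 37.8% to 50.8% of their counts in lf:YAP and 41.4% to 53.2% in WT.

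**Figure D2:**
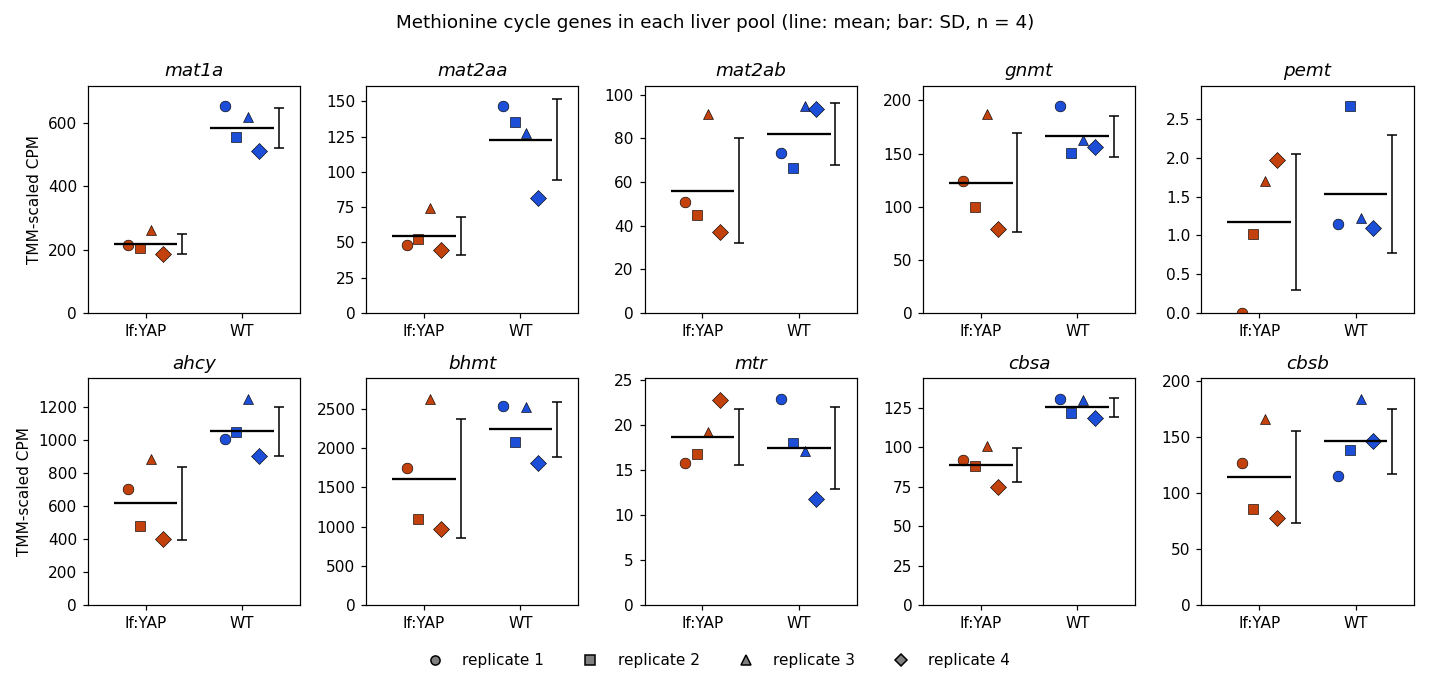
Each panel shows 1 gene, with the 4 lf:YAP libraries left of the 4 WT libraries, as TMM-scaled CPM on an axis from 0; symbols mark replicates, lines are means and bars are SDs. The groups are apart for mat1a, mat2aa, ahcy and cbsa, and lf:YAP replicate 3 is the highest lf:YAP library for all panels but mtr and pemt.

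Over the 9 members above the filter, 8 had a lower and 1 a higher fitted level in lf:YAP, with a median log2 fold change of -0.49 beside 0.01 for all 8369 genes tested. The fit over all genes called 4 members lower (mat1a, mat2aa, ahcy and cbsa) and 0 higher, where 10.5% of all genes tested were called lower and 11.1% higher. The groups did not overlap for 4 members, and for 23.7% of all genes tested. Since the members were proposed from this contrast, nothing is read from these counts. They also turned on single libraries: 8 members were called lower without lf:YAP replicate 3, and 2 without lf:YAP replicate 1, 2 or 4 or without WT replicate 1, 2 or 3. Over all genes, 1311 of 8995 tested were lower without lf:YAP replicate 3, and 604 to 809 in the other settings named. With all libraries, 875 of 8369 were lower. The log2 fold changes in the authors' deposited table, such as -1.38 for mat1a and -0.80 for ahcy, differed from those given here by at most 0.09.

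**Figure D3:**
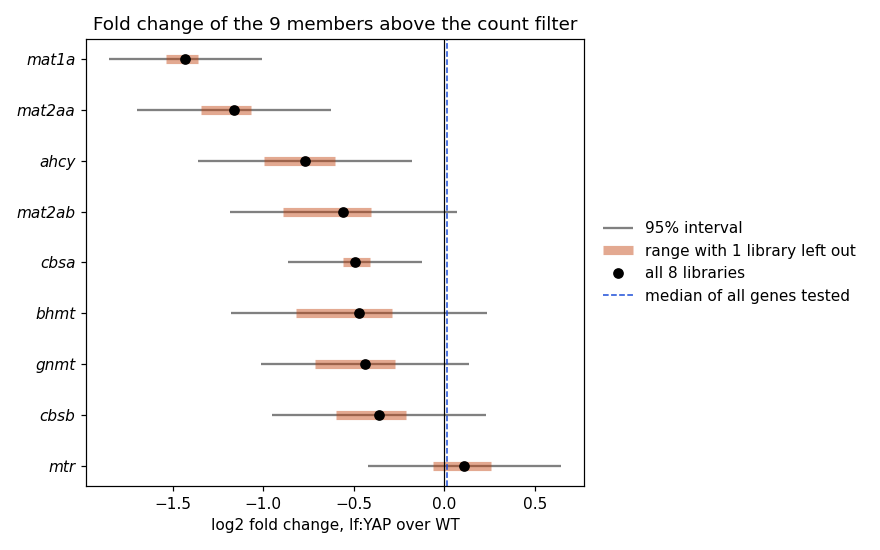
Points are the log2 fold changes (lf:YAP over WT) of 9 members, with 95% intervals as thin lines and the range on leaving out 1 library as thick bars; the dashed line is the median of all genes tested, 0.01. mat1a is farthest from 0 at -1.43, and mtr is the one member above 0, at 0.11.

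In pooled tissue, fewer hepatocytes and less RNA per hepatocyte cannot be told apart, so the members were also set against hepatocyte markers of the same library. The 12 listed markers, which did not move in 1 direction, summed to 24100 to 43010 CPM in lf:YAP and 34420 to 43610 CPM in WT. Per 1000 CPM of marker sum, mat1a had 5.88 to 8.50 CPM in lf:YAP and 14.8 to 16.1 CPM in WT, mat2aa 1.32 to 2.17 in lf:YAP and 2.36 to 3.76 in WT, and ahcy 13.8 to 20.6 in lf:YAP and 23.2 to 32.6 in WT. These 3 genes kept the groups apart on this scale and also with total counts alone. In contrast cbsa, at 2.35 to 3.67 CPM per 1000 in lf:YAP and 3.00 to 3.45 in WT, did not. The share of all genes with groups apart on either scale was not determined. Since the members were proposed from these values, nothing is read from which of them stayed apart. The marker sum holds fabp10a, with means of 7893 CPM in lf:YAP and 2698 CPM in WT. It also holds apoa1b, with means of 8417 CPM in lf:YAP and 16350 CPM in WT. The narrow gaps of mat2aa and ahcy on this scale thus depend on which markers are summed, and other sums were not tested. Scaling by total counts, without TMM, put the median over all genes tested at 0.31. The log2 fold changes were then -1.15 for mat1a, -0.89 for mat2aa, -0.53 for ahcy, -0.21 for cbsa and 0.42 for mtr.

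On the TMM scale, the lf:YAP libraries differed among themselves more than the WT libraries did for most members. The TMM factors, which enter these levels, ran from 0.869 to 1.28 in lf:YAP and from 0.862 to 0.959 in WT. The coefficient of variation (SD over mean) was 47.1% in lf:YAP and 15.8% in WT for bhmt, 37.95% in lf:YAP and 11.8% in WT for gnmt, and 35.6% in lf:YAP and 13.9% in WT for ahcy, while mat1a had 14.9% in lf:YAP and 10.8% in WT. From the lowest to the highest yap1 level, the lf:YAP libraries are replicates 3, 1, 2 and 4. In that order bhmt stood at 118%, 78.0%, 49.1% and 43.4% of the WT mean, gnmt at 112%, 75.0%, 60.3% and 47.8%, and cbsb at 114%, 87.0%, 58.7% and 53.0%. Their levels in replicate 3 were thus above the WT mean, and were lower in each library with more yap1. By contrast mat1a stood at 44.8%, 36.7%, 35.1% and 31.9%, and was low at all yap1 levels.

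A strict fall along this order was seen for 7 of the 9 members, the exceptions being mat2aa and mtr, and for 10.1% of all genes tested. With total counts alone it was seen for 4 members (ahcy, bhmt, gnmt and cbsb) and for 3.49% of all genes tested. The members were proposed with the values of these libraries known, so nothing is read from these counts either. Other measures followed nearly the same order over these 4 libraries. Replicate 3 had the highest sum of the 16 exocrine pancreas markers, 15640 CPM against 3018 to 3624 CPM in the other lf:YAP libraries and 2819 to 11830 CPM in WT. The test called 0 of 15 of these markers higher and 0 lower, and all 16 had counts. The hepatocyte marker sum was 43010, 36420, 24100 and 29100 CPM, and the sum of the 7 bile duct markers in the table was 2918, 3599, 3677 and 5386 CPM, against 1475 to 1529 CPM in WT. Most of the bile duct sum came from krt8, anxa4 and krt18a.1, with WT means of 756, 412 and 269 CPM. The markers epcam and sox9b had WT means of 14.0 and 7.80 CPM. The TMM factors were 0.869, 1.04, 1.28 and 1.28 in the same order. Whether any of these measures has a part in the order of the members was not tested. Between the groups, 6 of 7 tested bile duct markers were higher in lf:YAP, and 4 of 6 intestine, 3 of 6 stellate cell and 2 of 11 skeletal muscle markers were lower. Of all genes tested, 11.1% were called higher and 10.5% lower. All 6 tested stellate cell markers had log2 fold changes below 0. Those called lower were desma, rgs5a and vim, while col1a1a (-0.86), col1a2 (-0.21) and acta2 (-0.93) did not pass. In the other direction, the marker hand2, below the filter, had 39 counts in lf:YAP and 13 in WT over all libraries. The intestine markers summed to 39.6 to 255 CPM in lf:YAP and 139 to 644 CPM in WT, and the 7 macrophage markers, all below the filter and so not testable, summed to 10.2 to 33.6 CPM in lf:YAP and 4.58 to 7.96 CPM in WT, without overlap. Their part in the members' levels was not tested either.

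**Figure D4:**
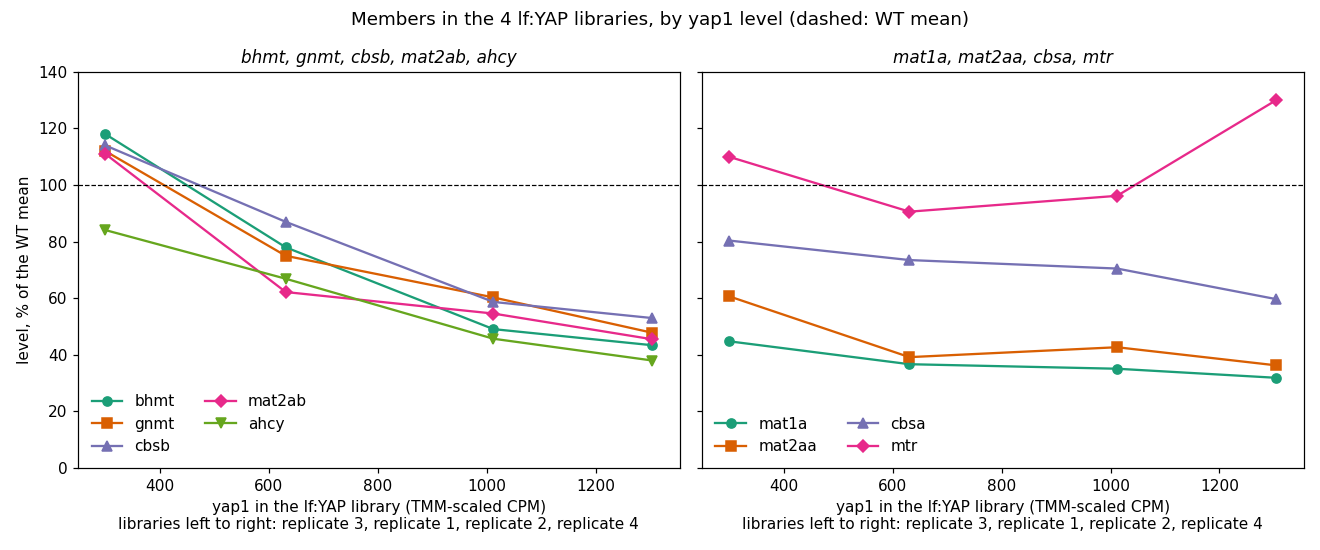
Lines follow the level of each member, as percent of its WT mean, over the 4 lf:YAP libraries placed by their yap1 level in TMM-scaled CPM; the dashed line is the WT mean. bhmt, gnmt, cbsb and mat2ab lie above 100% in replicate 3 and between 43.4% and 60.3% in replicates 2 and 4, where yap1 is highest, while mat1a lies at 31.9% to 44.8% throughout.

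The profile of bhmt, the member with the highest counts, was compared with every tested gene by Pearson correlation of log2 CPM over the 8 libraries, as a description over points that share groups and library scaling. The 5 most alike were the coagulation factor V gene f5 (r = 0.986), the fibrinogen gamma chain gene fgg (0.982), the phenylalanine hydroxylase gene pah (0.981), evi5a (0.979) and the homogentisate dioxygenase gene hgd (0.976). Like bhmt, f5 had 736, 513, 1043 and 441 CPM in lf:YAP replicates 1 to 4 and 752 to 900.5 CPM in WT, with replicate 3 above all WT libraries. All 5 genes had a lower mean level in lf:YAP, at 64.0% to 81.0% of WT. The 5 did not pass the edgeR quasi-likelihood test (adjusted p = 0.115 to 0.411). They were picked for likeness to bhmt over these same libraries, so the shared pattern follows from the choice. The evi5a row had only 12 to 26 counts per library.

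Genes around the cycle, none of them members, were tested in the same fit. Their lists were drawn up with earlier results of these data known, so counts and medians over them are a description. Of 146 listed genes, 97 could be tested. The test called 13 higher and 20 lower and left 64 uncalled, which is 34.0% called beside 21.6% of all genes tested. With total counts alone, 15 were higher and 9 lower. Single libraries weighed on these counts: 11 to 13 were lower without lf:YAP replicate 1 or 2 or any of WT replicates 1 to 3, and 8 were higher without lf:YAP replicate 1 or WT replicate 3. Over all genes, the same settings gave 604 to 809 lower and 789 to 801 higher, beside 875 and 929 with all libraries. Calls held for 17 genes around the cycle, 8 higher and 9 lower, whichever library was left out. Under the other settings as well, 16 held, 8 higher and 8 lower. The share of all called genes that held was not determined. Of the genes called higher, atic, tpmt.2 and sat1b had 0 WT libraries at the filter's minimum, 10 counts at the median library size. They passed the filter only through lf:YAP, so their calls support nothing and are given below as counts and folds alone. All 3 are still counted in the 13 higher and in the 34.0% called. The 8 higher calls that held with any library left out include those of atic and tpmt.2. In all, 9 called genes, 5 higher and 4 lower, had fewer than all libraries of their lower group at this minimum. Besides atic, tpmt.2 and sat1b they are adoa, sqor, dhfr, cthl, odc1 and pnpo. Each of these passed the filter with more libraries of the group where it was higher, which limits its call. Genes beyond the 3 of smallest p in each list are named to complete a count and were chosen after their values were seen.

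Folate carries the one-carbon units that mtr uses, and the genes listed for folate metabolism were more often called lower than higher in lf:YAP. The test called 9 of 19 lower and 1 higher, and 9 did not pass. Of all genes tested, 10.5% were called lower and 11.1% higher. The median log2 fold change was -0.59, beside 0.01 for all genes tested. The aldh1l1 gene, whose enzyme releases the carbon of formyl-tetrahydrofolate as carbon dioxide, had 166.5, 170, 199 and 117 CPM in lf:YAP, against 529, 664, 983 and 658 CPM in WT. All lf:YAP libraries lay far below WT, at -2.12 ± 0.23 on the log2 scale (SE; adjusted p = 8.46e-05 by the edgeR quasi-likelihood test). The mthfs gene, whose enzyme returns the storage form of folate to use, fell to 5.39 ± 1.95 CPM in lf:YAP, against 15.0 ± 2.77 CPM in WT (SD, n = 4 each), at -1.50 ± 0.28 on the log2 scale (adjusted p = 0.00225). The gene called higher was atic, of purine synthesis, which had 11 to 61 counts in lf:YAP and 5 to 9 in WT (log2 fold change 1.83 ± 0.37), and which passed the filter only through lf:YAP.

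Genes for enzymes that feed the folate pool from sarcosine and glycine went in part with these. The sarcosine dehydrogenase gene sardh, whose enzyme uses the product of gnmt, had 8.61, 6.10, 17.02 and 7.41 CPM in lf:YAP, against 21.0, 19.45, 22.4 and 23.6 CPM in WT (log2 fold change -1.20 ± 0.27, adjusted p = 0.00797). Each lf:YAP library was below WT, with replicate 3 closest. The glycine cleavage genes amt (-1.17 ± 0.29, adjusted p = 0.0115) and gldc (-0.61 ± 0.16, adjusted p = 0.0159) were lower, while gcsha (0.07 ± 0.26, adjusted p = 0.908) and gcshb (-0.46 ± 0.25, adjusted p = 0.199), for the carrier protein of the same system, did not pass. The dimethylglycine dehydrogenase gene dmgdh, whose enzyme uses the product of bhmt, did not pass, at -0.69 ± 0.24 (adjusted p = 0.0587).

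The other genes that fell were the mitochondrial serine hydroxymethyltransferase gene shmt2 (-0.81), mthfd1b (-0.59), the folate polyglutamation gene fpgs (-0.72) and the dihydrofolate reductase gene dhfr (-1.25). Of the 9, the calls of aldh1l1, mthfs, amt and sardh held whichever library was left out and with total counts alone, and the other 5 were lost with total counts. Leaving out 1 library also ended these 5 calls. It was WT replicate 3 for gldc (adjusted p = 0.0541), and any of lf:YAP replicates 1 and 2 and WT replicate 1 for shmt2 (up to 0.064). For fpgs it was any of lf:YAP replicate 2 and WT replicates 1 to 3 (up to 0.0563), for dhfr any of replicates 1 and 2 of lf:YAP and 2 and 4 of WT (up to 0.133), and for mthfd1b any of replicates 2 and 4 of lf:YAP and 1 to 3 of WT (up to 0.119). The count of lower folate genes was 5 without lf:YAP replicate 2, and 10 without lf:YAP replicate 3 and WT replicate 4 together.

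Downstream of cbsa and cbsb, genes of cysteine and sulfide metabolism went both ways. The test called 3 of 10 higher and 2 lower, and 5 did not pass, which is 50% called beside 21.6% of all genes tested. The cysteine sulfinate decarboxylase gene csad, of taurine synthesis, had 31.2, 23.1, 24.7 and 43.25 CPM in lf:YAP, against 16.8, 6.48, 9.35 and 11.53 CPM in WT (log2 fold change 1.47 ± 0.28, adjusted p = 0.00317). All lf:YAP libraries were above WT. The sulfide oxidation gene sqor rose by 1.08 ± 0.25 (adjusted p = 0.00815), and the cysteamine dioxygenase gene adoa by 1.18 ± 0.33 (adjusted p = 0.021), a call that needed each of lf:YAP replicate 1 and WT replicates 1 and 3 (up to 0.065 without them).

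The lower genes were the cystathionine gamma-lyase gene cth, which takes the product of cystathionine beta-synthase, and its relative cthl. The cth gene had 92.9, 69.4, 133 and 62.3 CPM in lf:YAP, against 169, 144.5, 135 and 151 CPM in WT, and lf:YAP replicate 3 was again nearest to WT. Its log2 fold change was -0.75 ± 0.22 (adjusted p = 0.0288), and the call was lost on leaving out any library but replicate 3 of either group (up to 0.0838). The cthl call was lost on leaving out any library but lf:YAP replicate 3 or WT replicate 1 (up to 0.124). Both were also lost with total counts alone, at adjusted p-values of 0.0501 and 0.0669.

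Choline supplies betaine to bhmt and phosphocholine to phosphatidylcholine, and 4 of 13 tested genes of this group were higher and 1 lower. That is 38.5% called, beside 21.6% of all genes tested. The choline dehydrogenase gene chdh, on the way to betaine, had 31.9, 25.4, 39.2 and 42.0 CPM in lf:YAP, against 20.6, 16.4, 22.8 and 18.7 CPM in WT (log2 fold change 0.82 ± 0.19, adjusted p = 0.00941). The gene pcyt1aa, for the rate-limiting step of phosphatidylcholine synthesis from phosphocholine, rose by 0.95 ± 0.21 (adjusted p = 0.00708). The groups were apart for both genes. The cholinephosphotransferase gene chpt1, for the last step, fell by 0.92 ± 0.21 on the log2 scale to 65.0 ± 21.3 CPM in lf:YAP, against 122 ± 4.90 CPM in WT (SD, n = 4 each; adjusted p = 0.00825). The choline kinase gene chka (0.45, adjusted p = 0.0379) and pmt, for a phosphoethanolamine methyltransferase (0.63, adjusted p = 0.0395), were also called higher. Both calls held without lf:YAP replicate 3 and that of pmt without WT replicate 4, and each was lost without any other library (up to 0.104 and 0.115).

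Creatine synthesis, a large use of SAM in mammals, held the lowest log2 fold change of the 97 genes tested around the cycle. The gatm gene encodes the amidinotransferase of its first step, which is no methyltransferase although listed with them, and averaged 15.1 ± 5.31 CPM in lf:YAP and 141 ± 47.2 CPM in WT (SD, n = 4 each). The groups did not overlap. The lf:YAP level was 10.7% of WT, at -3.24 ± 0.33 on the log2 scale (SE; adjusted p = 0.000112). The methyltransferase of the second step, gamt, had 334, 177, 495 and 141 CPM in lf:YAP, against 601, 675, 713 and 530 CPM in WT, and lf:YAP replicate 3 was nearest to WT, as for gnmt. Its log2 fold change was -1.14 ± 0.35 (adjusted p = 0.0404), a call kept without lf:YAP replicate 3 and lost without any other library (up to 0.0938). The thiopurine methyltransferase gene tpmt.1 rose by 1.08 ± 0.22 (adjusted p = 0.00406). Its neighbour in name tpmt.2 had 10 to 21 counts in lf:YAP and 1 to 3 in WT, and passed the filter only through lf:YAP. In all, 2 of the 7 tested genes of this list, tpmt.2 among them, were called higher and 2 lower. That is 57.1% called, beside 21.6% of all genes tested.

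Of the 28 genes listed for methylation of proteins, DNA and RNA, 10 fell below the filter. Of those tested, 11.1% were called, beside 21.6% of all genes tested. Of 18 tested, 0 were higher and 2 were lower, the histone methyltransferase genes kmt2a (-0.61 ± 0.15, adjusted p = 0.0104) and kmt2d (-0.50 ± 0.16, adjusted p = 0.0373). Both calls were lost with total counts alone (0.249 and 0.565), and that of kmt2d also on leaving out any library but WT replicate 3 or 4 (up to 0.0952). The arginine methyltransferase gene prmt3 had -0.69 ± 0.26 and did not pass (adjusted p = 0.0705), but did without WT replicate 2 (0.0428). The count of 0 higher depended on the filter and on single libraries. With no filter, or with at least 1 CPM in 4 libraries, 1 listed gene was higher and 1 lower. It was also 1 higher without lf:YAP replicate 3 or without WT replicate 1, 2 or 4.

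In methionine salvage and polyamine metabolism, which also draw on SAM, 2 of 16 tested genes were higher and 2 lower. That is 25% called, near the 21.6% of all genes tested. The polyamine acetyltransferase gene sat1a.1 had 118, 88.2, 175 and 89.7 CPM in lf:YAP, against 233, 220, 236 and 225 CPM in WT (log2 fold change -0.96 ± 0.21, adjusted p = 0.00708). The salvage gene adi1, for acireductone dioxygenase, rose by 0.86 ± 0.22 on the log2 scale (adjusted p = 0.0139). The ornithine decarboxylase gene odc1 was called lower (-0.97, adjusted p = 0.047), a call lost on leaving out any of replicates 1 and 3 of lf:YAP and 1 to 3 of WT (up to 0.118) and with total counts alone. The other gene called higher, sat1b, had 11 to 31 counts in lf:YAP and 2 to 9 in WT, and passed the filter only through lf:YAP. Its call was also lost on leaving out any of replicates 1 and 2 of lf:YAP and 3 and 4 of WT.

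Among 10 tested genes of cofactors and transport, 0 were higher and 2 were lower. That is 20% called, near the 21.6% of all genes tested. The neutral amino acid transporter gene slc7a8a had 10.3 ± 1.80 CPM in lf:YAP and 25.1 ± 6.73 CPM in WT (SD, n = 4 each; log2 fold change -1.30 ± 0.23, adjusted p = 0.0016). The gene pnpo, for the oxidase that forms the pyridoxal phosphate cofactor of cystathionine beta-synthase, had -1.16 ± 0.37 (adjusted p = 0.038), a call lost on leaving out any library but lf:YAP replicate 3 or WT replicate 4 (up to 0.115) and with total counts alone. The cobalamin carrier gene tcn2 had 16.3 to 50.2 CPM in lf:YAP and 56.1 to 65.6 CPM in WT and did not pass (adjusted p = 0.0725), but did without lf:YAP replicate 3 (0.0157). Of the 4 tested other genes of the cycle, the ahcy-like gene ahcyl2b was called higher (0.50 ± 0.16, adjusted p = 0.0378), and this call was lost without any library but lf:YAP replicate 3 (up to 0.114). The adenosine kinase genes adka and adkb, which clear the adenosine released by ahcy, had 0.25 and -0.21 and did not pass (adjusted p = 0.33 and 0.404), and adkb was above 0 with total counts alone.

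**Figure D5:**
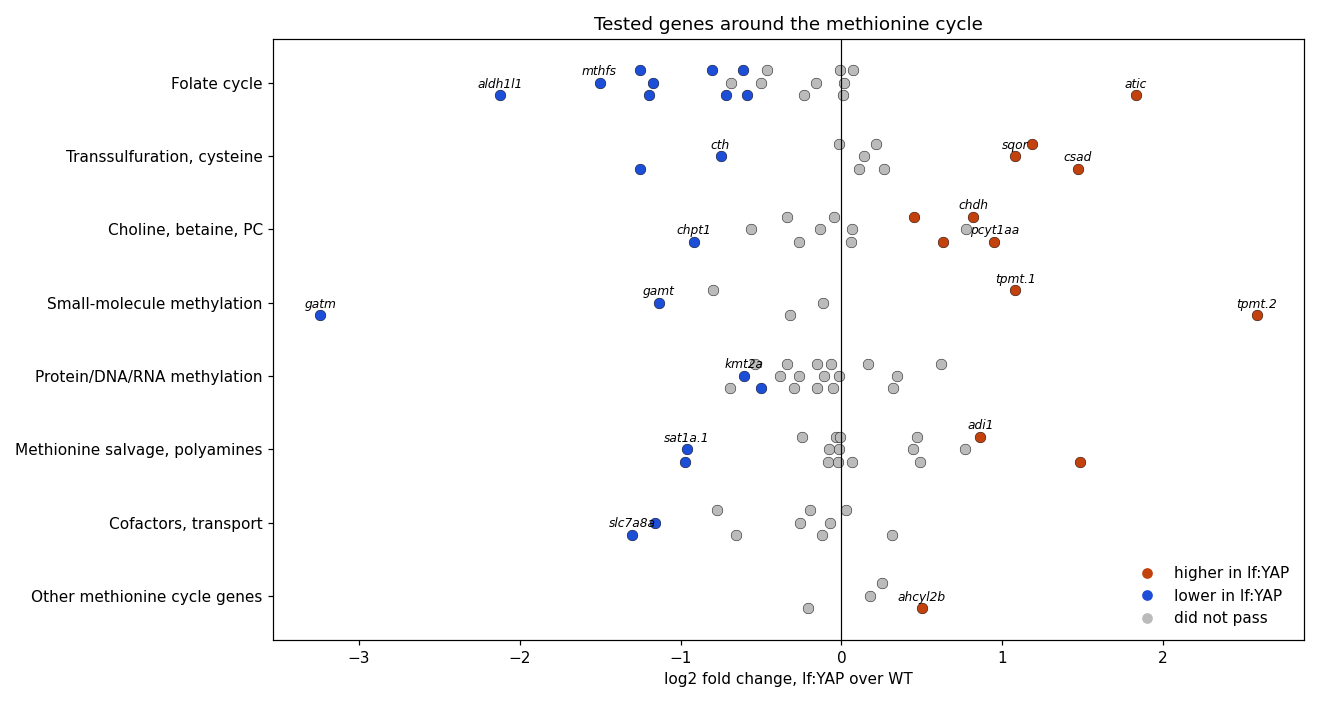
Each point is 1 tested gene around the cycle, placed by its log2 fold change (lf:YAP over WT) in the row of its list and coloured by the call at an adjusted p under 0.05; height within a row only spreads the points. The folate row has 9 of 19 genes called lower and 1 higher, and gatm at -3.24 is farthest from 0.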

How the data were processed

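Total RNA of 8 pools of larval livers was sequenced with paired 75-base reads, per the labels' protocols. The submitters' processing notes list featureCounts 1.6.0, HISAT2 2.1.0, limma 3.40.6, cutadapt 1.16 and danRer10, and do not say how they were applied. The annotation and strand setting were not given in the sources used, so it is not known whether reads of a gene and its antisense partner were separated. The authors deposited whole-number counts per gene and library, CPM values per library (count over column total), a log2 fold change, a mean log2 expression and p-values. Results were computed from the counts; the authors' fold changes serve only as a comparison.

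Of 35117 rows, 6518 carry no gene name; they held 0.657% to 2.55% of a library and were left out. Genes are given by symbol, since no genome, protein or promoter sequence was used here. Of 146 listed neighbours, 140 were in the table, 2 under an older name. R 4.3.3 and edgeR 4.0.16 were used: filterByExpr, TMM, robust quasi-likelihood F-test, 2-sided, lf:YAP against WT with no other term, Benjamini-Hochberg adjustment over 8369 genes, called under 0.05. The SE is the log2 fold change over the square root of F, and 95% intervals used 6 residual degrees of freedom. The fit was tested on simulated data.

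Members, lists and named genes (all members, the 3 of smallest p per list, yap1, and 5 genes most like the top member) were chosen with earlier results of these data known. Alternatives were DESeq2 1.42.0, limma-voom (limma 3.58.1), other scalings and filters, summed rows of 1 symbol, a replicate block and left-out libraries. No pairing by replicate number was seen (deviations of same-numbered libraries correlated at -0.051 to 0.042), which cannot exclude a shared clutch or batch.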

Additional observations from a re-analysis of the deposited data

Results flagged for a closer look

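In 108 groups of 4 libraries examined, 3 had 1 library far from the others, where chance gives about 1 in 20. The exocrine pancreas marker sum of lf:YAP replicate 3 was 15640 CPM, against 3018 to 3624 CPM in the other lf:YAP libraries. The shmt2 level of WT replicate 1 was 80.1 CPM, against 62.5 to 64.7 CPM in the other WT libraries. The pemt level of WT replicate 2 was 2.67 CPM, against 1.098 to 1.22 CPM in the other WT libraries, a difference of a few counts.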

How the results depend on the processing

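Relative to 929 higher and 875 lower genes over the whole table, there were 1541 and 521 with total counts alone, a shift of the higher share from 51.5% to 74.7%, and 1410 and 1445 with no filter; other settings stayed within 1.5 times. Leaving out 1 library gave 705 to 1227 higher and 604 to 1311 lower genes. Members called numbered 2 to 8 lower and 0 higher with 1 library left out, and 7 lower without lf:YAP replicate 3 and WT replicate 4 together. Genes around the cycle numbered 9 lower with total counts alone, and 8 to 14 higher and 11 to 23 lower with 1 library left out. The replicate block gave 855 higher and 830 lower genes, 3 members lower, and 10 higher and 20 lower neighbours. The adkb log2 fold change, not called, turned to 0.0814 with total counts alone. The mat1a share differed by -8.23 to -5.49 percentage points with 1 library left out. The cause of these shifts was not tested. Of 162 other values of members, 4 moved by more than the replicate spread, those of mat1a and cbsa with total counts and against hepatocyte markers, a scaling chosen after seeing the data. Depth limits pemt and other genes with few counts.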
